A study of Mus musculus with 6 samples.

Results

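Potassium channel genes of the mouse were examined in cultured podocytes, together with Dpp6 and Dpp10, which encode subunits that attach to some of these channels. The set was taken by symbol: every protein-coding gene whose name begins with Kcn and a further letter, plus the 2 Dpp genes, which gave 96 genes among the 57132 identifiers measured. The set was chosen by a measured value, the counts of Dpp6, which were above 0 in one cell line and 0 in the other. Its values are therefore described without a test, and it is left out of every count of called genes. The 5 antisense or other non-coding genes whose names also begin this way were left out.

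RNA from 3 samples of WT (Col4a3+/+) and 3 samples of AS (Col4a3-/-) immortalized podocytes was sequenced, the AS cells serving as a culture model of Alport syndrome, in which a collagen chain of the glomerular basement membrane is lost. Both lines came from kidneys of male mice of 8 weeks that also carried H-2Kb-tsA58, a transgene in which an interferon-inducible promoter drives a temperature-sensitive large T antigen. Per the labels both were kept with 20 U/mL interferon gamma at 33 °C, differentiated over 14 days at 37 °C and left untreated, while the study's methods give a shorter differentiation and a lower interferon dose. Each genotype is represented by 1 cell line, so genotype and line cannot be told apart, and nothing says that the samples of a line are separate cultures. The p-values below then measure only the spread between these samples, which may be technical.

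The samples held between 45417221 and 54290968 counts. Col4a3, the deleted gene, lay at 938, 1052 and 1272 CPM (counts divided by the scaled library size in 1000000) in WT and at 61.2 to 82.9 CPM in AS podocytes, so that reads remained on the gene in the AS line. Of the podocyte markers, Synpo (803 CPM in WT and 526 CPM in AS) and Actn4 (810 and 677 CPM) were abundant in both lines. Tcf21 had no count in any sample and Nphs1 stood at 0.466 CPM in WT samples and 0.0407 CPM in AS podocytes, so these defining markers were absent or nearly so. Over the whole list of 12 podocyte markers, 9 were tested, of which 6 were lower and 3 higher in AS podocytes, beside 19.6% and 20.4% of all genes tested. The 6 include Nphs1, which entered the test through its WT counts alone, so its call carries no weight of its own. The summed level of the list ran from 1723.5 to 1895.5 CPM in WT and from 1300.0 to 1388.2 CPM in AS. WT replicate 1 stood apart from the other WT samples, with a chi-square per degree of freedom of 47.65 and 49.97 against them, while those 2 differed from each other by 9.83. Replicate 1 was the highest or the lowest WT sample in 86.1% of the potassium channel genes tested and in 76.3% of all genes tested. For AS replicate 2 among the AS samples these shares were 83.3% and 66.9%.

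Potassium channels let potassium ions pass the cell membrane down their gradient, and thereby set the resting potential, end electrical excitation and return potassium across epithelia. The pore is built from subunits of several families, which are opened by voltage, by calcium or sodium inside the cell, or are open at rest, such as the inward rectifiers and the 2-pore-domain channels. Auxiliary subunits form no pore. DPP6 and DPP10 resemble dipeptidyl peptidases without their enzyme activity, and together with the KChIP proteins (Kcnip genes) they assemble with Kv4 channels (Kcnd genes), which carry the rapidly inactivating A-type current best known from neurons and heart. The calcium-activated channel of large conductance (BK) has been described in podocytes.

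The promoter sequences of Dpp6 and Dpp10 are shown first because Dpp6 was read in 1 line only and Dpp10 in none. They are the 250 bases before each RefSeq transcript start (build GRCm38.p6), 5′ to 3′ on the strand of the gene, with every CG dinucleotide in capitals. Dpp6 has 3 such starts on the plus strand of chromosome 5, at chr5:26817107-26817356, chr5:27048949-27049198 and chr5:27261685-27261934. Dpp10 has 1, on the minus strand, at chr1:124045560-124045809.
Dpp6 start 1: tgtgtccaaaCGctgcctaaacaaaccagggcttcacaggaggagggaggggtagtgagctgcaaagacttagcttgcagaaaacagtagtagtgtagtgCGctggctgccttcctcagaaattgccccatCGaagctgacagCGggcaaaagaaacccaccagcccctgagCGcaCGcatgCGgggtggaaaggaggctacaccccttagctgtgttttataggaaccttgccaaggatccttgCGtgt
Dpp6 start 2: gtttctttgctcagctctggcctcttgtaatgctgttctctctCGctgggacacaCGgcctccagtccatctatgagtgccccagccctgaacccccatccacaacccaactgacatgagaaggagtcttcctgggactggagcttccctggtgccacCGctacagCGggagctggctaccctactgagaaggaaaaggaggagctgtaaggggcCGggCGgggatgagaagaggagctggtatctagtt
Dpp6 start 3: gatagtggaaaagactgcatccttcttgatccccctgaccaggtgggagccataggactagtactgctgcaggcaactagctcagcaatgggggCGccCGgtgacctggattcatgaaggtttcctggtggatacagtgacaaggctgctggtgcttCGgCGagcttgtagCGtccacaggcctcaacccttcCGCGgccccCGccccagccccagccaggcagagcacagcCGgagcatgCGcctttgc
Dpp10: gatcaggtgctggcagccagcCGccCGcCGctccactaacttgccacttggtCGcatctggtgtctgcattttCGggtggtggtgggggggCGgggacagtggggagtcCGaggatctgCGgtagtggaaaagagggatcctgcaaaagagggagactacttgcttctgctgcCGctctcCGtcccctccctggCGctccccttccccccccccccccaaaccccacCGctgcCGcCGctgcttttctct

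The 3 Dpp6 windows held 8, 6 and 10 CG dinucleotides and the Dpp10 window held 14, while the median of all 32851 RefSeq windows was 6. None of the 4 was CpG-rich, here meaning a CpG observed over expected of at least 0.6 with a GC content of at least 50%; their ratios were 0.435, 0.289, 0.427 and 0.530. Among all windows 31.0% were CpG-rich. The RefSeq windows covered 71 of the 96 genes with 98 windows, of which 27.6% were CpG-rich. The letters TATAAA were searched on both strands. In the window of Dpp6 start 1 they were found only on the strand opposite the gene, where the printed sequence reads TTTATA. On either strand they were found in 4.08% of the windows of the set against 12.4% of all windows. A gene counts below as detected in a line when at least 2 of its 3 samples held 10 or more counts. Of the 31 detected genes with a window 13 (41.9%) had a CpG-rich one, and of the 40 undetected genes 13 (32.5%). The counts are summed per gene, so which Dpp6 start was used in AS podocytes was not measured.

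Dpp6 (ENSMUSG00000061576.16) had 0, 0 and 0 counts in the WT samples and 953, 1302 and 1695 counts in the AS samples. The AS counts correspond to 21.2, 25.3 and 30.8 CPM, with a mean of 25.8 ± 4.84 CPM (SD, n = 3). The lines did not overlap, and each AS sample held Dpp6 well above the limit of 3 counts over the group. That limit equals 0.0209 CPM in WT, which puts AS podocytes at least 1233-fold higher, counting error only. The AS spread of 18.8% of the mean lay within the 0.075% to 20.6% of the 7 other members with at least 5 CPM in AS. No other gene of the set came near this pattern: 17 others had counts in 1 line only, and none of these held more than 6 counts over that line. Among all members in AS podocytes Dpp6 had rank 1 by CPM. Per kilobase of exon (RPKM, CPM divided by the summed exon length of the gene in GENCODE M21) it had rank 5, at 2.09 ± 0.392 RPKM (SD, n = 3). Dpp10 had no count in any sample. Fewer cells of a kind and less RNA per cell cannot be told apart in such bulk samples, here and in all results that follow.

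**Figure D1:**
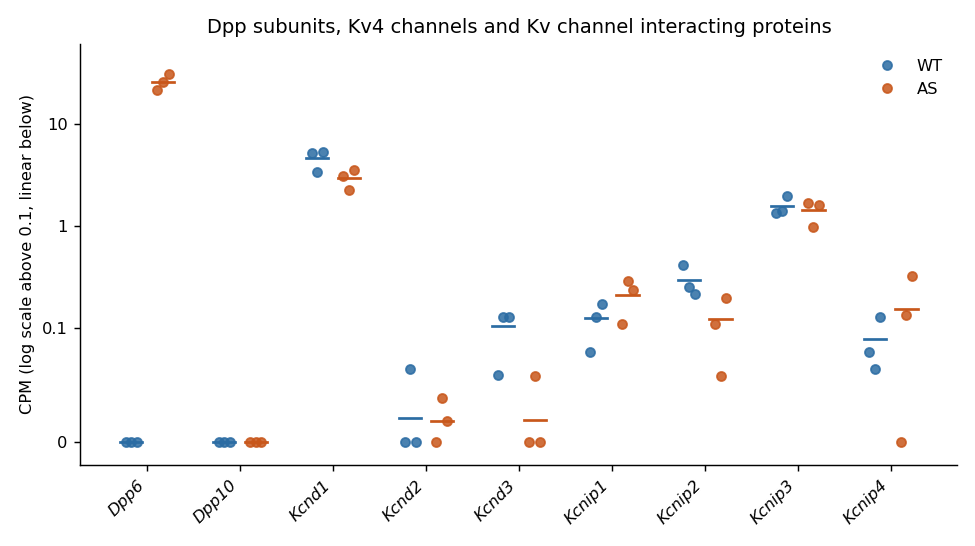
CPM of Dpp6, Dpp10, the Kv4 genes (Kcnd1 to Kcnd3) and the KChIP genes (Kcnip1 to Kcnip4) in each sample, on an axis that is logarithmic above 0.1 CPM and linear below; points are the 3 WT and the 3 AS samples and short lines their means. Dpp6 is at 0 in the 3 WT samples and between 21.2 and 30.8 CPM in the AS samples, and of the genes it can assemble with only Kcnd1 and Kcnip3 exceed 0.5 CPM.

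The genes next to Dpp6 on chromosome 5 did not share its pattern. Of the 5 protein-coding neighbours on each side, 7 had at most 4 counts in any sample and were not tested. The remaining 3 were present in both lines: Paxip1 lay at 22.6 CPM in WT and 25.4 CPM in AS (log2 fold change 0.17, adjusted p 0.247 in edgeR's quasi-likelihood test with Benjamini-Hochberg adjustment over all tested genes, as for all p-values below). Insig1, a regulator of cholesterol synthesis, rose from 21.3 to 39.8 CPM (log2 fold change 0.90, adjusted p 0.000163), and Gm7361 from 0.894 to 2.08 CPM (1.21, adjusted p 0.00425). The median log2 fold change of all genes tested on chromosome 5 was 0.19.

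Since Dpp6 is best known from neurons, the neuronal markers are given beside it. Snap25 and Nefl had no count in any sample, and Rbfox3 averaged 0.0693 CPM in WT with no count in AS podocytes. Stmn2, which encodes a protein that destabilizes microtubules, rose from 0.245 ± 0.0434 to 11.1 ± 1.38 CPM (SD, n = 3; log2 fold change 5.49, adjusted p 9.92e-08), whereas Syn1, a synaptic vesicle gene, fell from 8.64 to 5.08 CPM. The summed level of all 6 markers was 8.69 to 10.1 CPM in WT and 14.3 to 19.0 CPM in AS podocytes, and its part in the Dpp6 counts was not tested. The endothelial list summed to at most 1.35 CPM and the leukocyte list to at most 3.14 CPM in any sample.

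The channels and subunits that Dpp6 is known to join were few and low. Of the 3 Kv4 genes only Kcnd1, which encodes Kv4.1, was detected, with 5.15, 3.35 and 5.25 CPM in WT and 3.09, 2.24 and 3.54 CPM in AS podocytes. The highest AS sample exceeded the lowest WT sample, so the lines overlapped. The log2 fold change was -0.63 (SE 0.23, adjusted p 0.0524), which missed the threshold of 0.05, but without WT replicate 2 it was -0.81 with an adjusted p of 0.0189. With any other sample left out the adjusted p of Kcnd1 ran from 0.0515 to 0.154. Kcnd2 had at most 3 counts and Kcnd3 at most 6 counts in a sample. Of the 4 KChIP genes, whose products bind the Kv4 N-terminus, Kcnip3 lay at 1.57 ± 0.334 CPM in WT samples and 1.42 ± 0.387 CPM in AS podocytes (SD, n = 3; log2 fold change -0.14, SE 0.28, adjusted p 0.718); it turned to 0.04 without WT replicate 3 and to 0.06 without AS replicate 2. Kcnip2 had 21, 12 and 10 counts in WT and 5, 3 and 11 counts in AS podocytes, and missed the threshold (adjusted p 0.104). Kcnip1 and Kcnip4 stayed at or below 18 counts in every sample and were not tested. In AS podocytes Dpp6 thus lay at 2.09 RPKM, beside 0.559 RPKM of Kcnd1 and 0.400 RPKM of Kcnip3.

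Across the whole set, 35 genes (36.5%) were detected in WT and 34 (35.4%) in AS podocytes, 31 of them in both. Of all protein-coding genes 60.9% and 60.5% were detected. The 4 detected in WT only were Kcnip2, Kcns3, Kcnj13 and Kcnk2, and the 3 detected in AS only were Dpp6, Kcnip1 and Kcnj14. Apart from Dpp6 these held at most 32 counts in a sample. The remaining 58 genes were detected in neither line, and 16 of those had no count at all. With a minimum mean of 1 CPM in the line in place of 10 counts, 24 genes were detected in WT and 22 in AS podocytes, and with at least 1 count in every sample of the line 47 and 45.

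Apart from Dpp6, 36 of the 95 genes had enough counts to be tested. Of these 19 (52.8%) differed between the lines at an adjusted p under 0.05, beside 40.1% of all 16263 genes tested. The excess over that background was in the genes that fell: 13 were lower in AS podocytes (36.1%, beside 19.6% of all genes) and 6 were higher (16.7%, beside 20.4%). With an absolute log2 fold change over 1 in addition, 13 were called, 3 higher and 10 lower, or 36.1% beside 11.2% of all genes. The median log2 fold change of the 36 was -0.59, that of all genes 0.0061, and the samples of the lines did not overlap in 23 of the 36 (63.9%, beside 52.3% of all genes). The genes of the set were low, with a median of 2.26 CPM against 15.1 CPM over all tested genes, and 11 of the 36 stayed under 1 CPM in both lines. Of the 36, 5 were detected in 1 line only, and 2 of these, Kcns3 and Kcnj13, were called lower. Since they entered the test through the line where they are high, their calls carry no weight of their own. Both are nevertheless counted in the 13 lower and the 10 lower above. The shares and the median above were not recomputed without them. Of the 31 tested genes detected in both lines, 11 were lower and 6 higher.

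**Figure D2:**
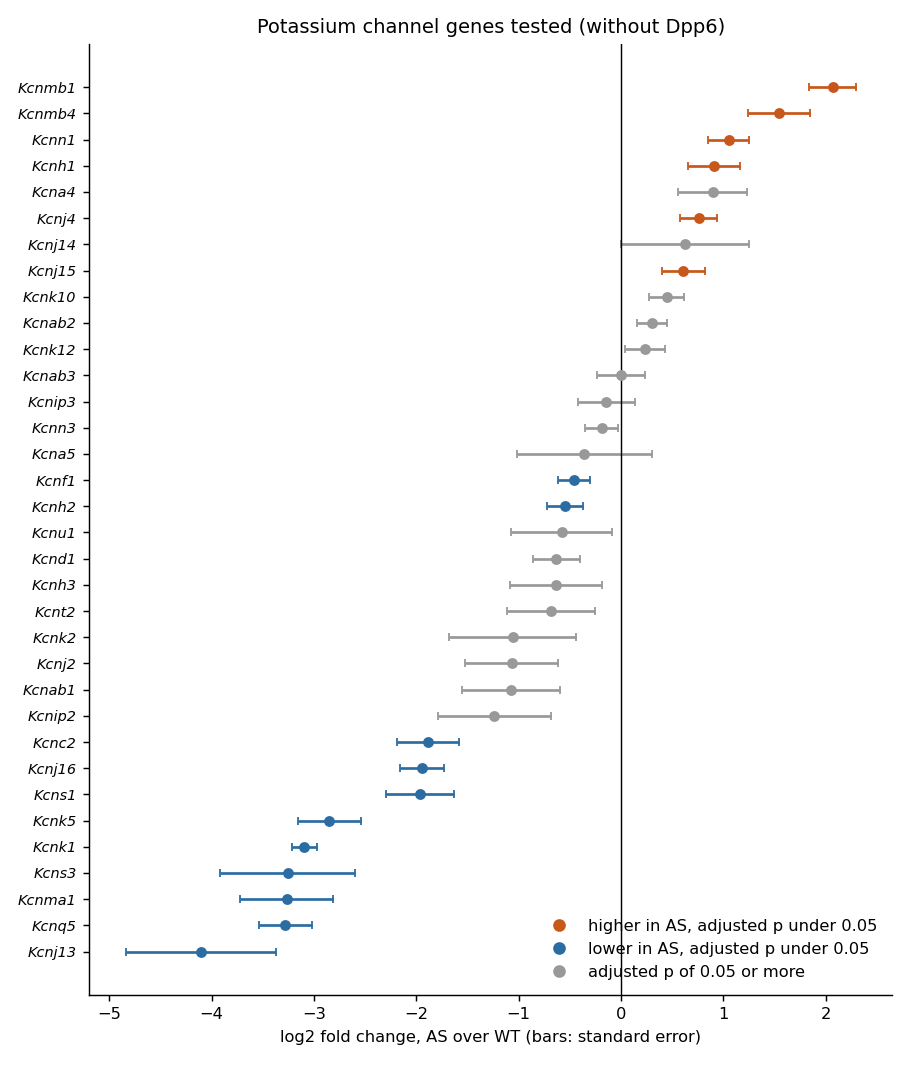
Log2 fold change (AS over WT) of 34 of the 36 tested genes other than Dpp6, with bars of 1 standard error, in order of size; colour marks the genes with an adjusted p under 0.05. Of these, 11 lie below 0 and 6 above it, from -4.11 for Kcnj13 to 2.07 for Kcnmb1.

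Of the other auxiliary subunits, those of the BK channel moved and those of the Kv1 channels did not pass the test. Kcnmb1, encoding the beta subunit of BK channels that is typical of smooth muscle and raises their calcium sensitivity, lay at 0.848, 1.67 and 1.28 CPM in WT and at 5.28, 5.29 and 5.29 CPM in AS podocytes. All AS samples were above all WT samples (log2 fold change 2.07, SE 0.23, adjusted p 0.000112). The AS samples differed by 0.075% of their mean, less than the counting error of 5.86% of the highest of them, so that this spread understates the error. Kcnmb4, the beta subunit typical of brain, rose from 0.375, 0.534 and 0.694 CPM to 1.40, 1.83 and 1.44 CPM, again without overlap (log2 fold change 1.54, SE 0.30, adjusted p 0.00291). Genes on chromosome 10, where Kcnmb4 lies, had a median log2 fold change of 0.31, and relative to it the value was 1.24; 20.9% of its exonic bases overlap the antisense gene Kcnmb4os2 and 10.7% Kcnmb4os1, which held at most 0.0727 CPM in a sample. Kcnmb2 and Kcnmb3 were not detected.

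The pore of the same channel moved the other way. Kcnma1, the single gene for the BK pore, had 11.1, 5.02 and 3.97 CPM in WT and 0.688, 0.370 and 1.02 CPM in AS podocytes. The lowest WT sample stood above all AS samples, and WT replicate 1 was the highest of all. The log2 fold change was -3.27 (SE 0.46, adjusted p 0.000455), and -2.69 without WT replicate 1. The BK gamma subunits Lrrc26, Lrrc38, Lrrc52 and Lrrc55 summed to at most 0.256 CPM in any sample. Of markers of smooth muscle and mesangial cells, in which Kcnmb1 is abundant, 2 of 6 fell (19.6% of all genes tested did) and 4 did not pass the test. Acta2 lay at 6701 and 6759 CPM, and Myh11 fell from 29.1 to 3.96 CPM. The summed level of that list was 5771.5 to 7940.4 CPM in WT and 6422.3 to 7548.9 CPM in AS podocytes, and its part in the BK values was not tested.

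**Figure D3:**
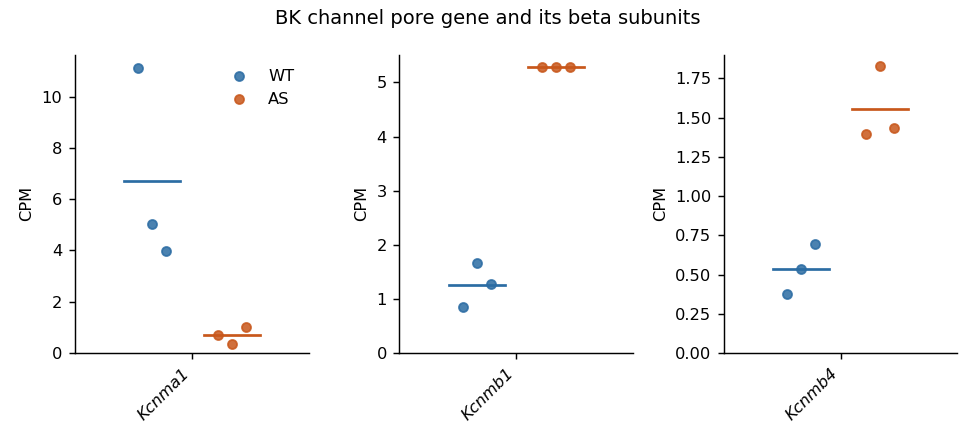
CPM of the BK channel pore gene Kcnma1 and of the beta subunit genes Kcnmb1 and Kcnmb4 in each sample, each gene on its own linear axis from 0; points are the 3 samples of each cell line and short lines their means. Kcnma1 is between 3.97 and 11.1 CPM in WT and at or below 1.02 CPM in AS, and Kcnmb1 is at or below 1.67 CPM in WT and at 5.28 to 5.29 CPM in AS.

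The 3 Kv beta genes, whose products bind Kv1 channels in the cytoplasm, were detected in both lines. Kcnab2, the most abundant, lay at 11.2, 9.46 and 8.65 CPM in WT and 12.7, 9.88 and 13.6 CPM in AS podocytes (log2 fold change 0.30, SE 0.15, adjusted p 0.131). Relative to the median of its chromosome 4 the value was 0.47. The lines overlapped, although the adjusted p was 0.0402 without WT replicate 1 and 0.0465 without AS replicate 2, with log2 fold changes of 0.41 and 0.42. With any other sample left out it ran from 0.257 to 0.377. Kcnab3 averaged 1.66 CPM in each line, and Kcnab1 stood at 1.01 ± 0.366 and 0.470 ± 0.320 CPM (SD, n = 3; log2 fold change -1.08, adjusted p 0.104), passing without AS replicate 3 (-1.79, adjusted p 0.0197). With any other sample left out the adjusted p of Kcnab1 ran from 0.0595 to 0.321. The 5 Kcne genes and Kcnrg were not detected in either line.

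Of the 30 genes for voltage-gated pores, 10 were detected in each line and tested. In AS podocytes 5 of them fell, 1 rose and 4 did not pass the test, so that 6 of 10 were called, beside 40.1% of all genes. The clearest was Kcnq5, whose product Kv7.5 carries a slow current of the M type that opens near the resting potential. It had 3.39, 3.63 and 3.12 CPM in WT and 0.466, 0.331 and 0.254 CPM in AS podocytes. The WT samples lay close together and far above every AS sample (log2 fold change -3.28, SE 0.26, adjusted p 1.28e-05). Kcnq1 and Kcnq3 stayed at or below 6 counts in every sample.

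Kcnc2, which encodes a fast channel of rapidly firing cells, fell as well. It had 5.70, 3.16 and 3.62 CPM in WT and 1.27, 1.40 and 0.727 CPM in AS podocytes. Every WT sample was above every AS sample, and AS replicate 3 was the lowest (log2 fold change -1.89, SE 0.30, adjusted p 0.00105).

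A smaller decrease was found for Kcnh2, named after its values were seen. Kcnh2, the ERG channel known from cardiac repolarization, lay at 3.25, 3.67 and 3.01 CPM in WT and 2.04, 2.18 and 2.58 CPM in AS podocytes (log2 fold change -0.54, SE 0.18, adjusted p 0.0341). The lines did not overlap, but the call was lost without WT replicate 1 or 2 or AS replicate 1 or 2, where the log2 fold change ran from -0.56 to -0.47. Kcnh1, the EAG channel, was the gene that rose, from 0.848, 1.47 and 1.30 CPM to 2.46, 1.91 and 2.42 CPM (0.91, SE 0.25, adjusted p 0.0178). Its lines did not overlap, and its adjusted p was 0.0566 without AS replicate 1 (log2 fold change 0.83) and 0.0608 without AS replicate 3 (0.86). Of the 8 Kv1 genes, Kcna4 and Kcna5 were tested and did not pass. Kcna4 had 0.496 CPM in WT samples and 0.926 CPM in AS podocytes (0.89, SE 0.33, adjusted p 0.0576), and passed without WT replicate 1 (1.18, adjusted p 0.0315). With any other sample left out its adjusted p ran from 0.0821 to 0.169.

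The silent Kv genes encode subunits that form no channel alone and modify Kv2 channels. Of 10 in the set 3 were tested, and Kcns1 and Kcnf1, which were detected in both lines, fell, beside 19.6% of all genes tested. Kcns1 had 1.36, 1.77 and 2.17 CPM in WT and 0.266, 0.584 and 0.491 CPM in AS podocytes (log2 fold change -1.96, SE 0.34, adjusted p 0.00145). The lines did not overlap. Kcns3 had 17, 26 and 32 counts in WT and 1, 6 and 1 counts in AS podocytes, and is given as counts because it passed the filter through WT alone. Kcnf1, the most abundant of the 3, had 6.47, 9.38 and 9.38 CPM in WT and 6.02, 6.30 and 6.01 CPM in AS podocytes (-0.46, SE 0.16, adjusted p 0.0419). Its WT replicate 1 almost reached the AS samples, and the call was lost when any sample other than WT replicate 1 was left out, with log2 fold changes from -0.49 to -0.38 and adjusted p from 0.0789 to 0.136.

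Besides Kcnma1, the ion-activated pores include the small conductance calcium-activated channels (Kcnn genes). Kcnn1 had 2.03, 1.35 and 1.95 CPM in WT and 3.69, 3.91 and 3.47 CPM in AS podocytes. All AS samples were above all WT samples (log2 fold change 1.05, SE 0.20, adjusted p 0.00249), and relative to the median of its chromosome 8 the value was 0.75. Kcnn3, the most abundant of the group per length, lay at 12.5 ± 1.70 and 10.9 ± 2.26 CPM (SD, n = 3), where the lines overlapped (-0.19, SE 0.16, adjusted p 0.389). Kcnn4, the intermediate conductance channel, stayed at or below 11 counts. The sodium-activated Kcnt2 and Kcnu1, a channel known from sperm, stayed under 1 CPM and did not pass.

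Inward rectifiers pass potassium more readily into the cell than out of it and hold the resting potential. Of the 15 genes 6 were tested, of which Kcnj16 fell, Kcnj4 and Kcnj15 rose, Kcnj2 and Kcnj14 did not pass, and Kcnj13 is given by its counts alone. Of all genes tested 19.6% were lower and 20.4% higher. Kcnj16, encoding Kir5.1, a subunit of basolateral channels of the kidney tubule that requires a partner such as Kir4.1, had 126, 74.3 and 65.9 CPM in WT and 25.93, 20.95 and 22.46 CPM in AS podocytes. Every WT sample was above every AS sample, with WT replicate 1 the highest by far (log2 fold change -1.94, SE 0.22, adjusted p 0.000119). Its known partner Kcnj10 (Kir4.1) had at most 8 counts in a sample, whereas Kcnj15 (Kir4.2), another partner, had 1.52, 2.56 and 2.23 CPM in WT and 3.24, 3.25 and 3.13 CPM in AS podocytes. The lines did not overlap for Kcnj15 (0.61, SE 0.21, adjusted p 0.0452), but its call was lost when any sample other than WT replicate 2 was left out, with log2 fold changes from 0.42 to 0.65 and adjusted p from 0.0782 to 0.106. Of 6 tubule markers, Umod and Aqp2 had no count, Lrp2 lay at 274 and 255 CPM and Aqp1 fell from 115 to 69.7 CPM; the list summed to 372.5 to 419.1 CPM in WT and 274.9 to 386.6 CPM in AS podocytes, and its part in the Kcnj16 values was not tested.

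Kcnj4 (Kir2.3), a strong inward rectifier, was the inward rectifier that rose most in CPM. It had 6.04, 10.5 and 8.84 CPM in WT and 14.9, 12.9 and 15.1 CPM in AS podocytes, without overlap (log2 fold change 0.76, SE 0.18, adjusted p 0.00829). Relative to the median of its chromosome 15 the value was 0.56. Kcnj13 (Kir7.1), a channel of epithelia, had 14, 24 and 17 counts in WT and 2, 1 and 0 counts in AS podocytes, 55 against 3 counts in all. It too passed the filter through WT alone and is given as counts. From the counts pooled over each line the WT level was 19.3 times that in AS, a description without a test. Its 95% interval, for counting error only, ran from 6.28 to 96.6. Of the exons of Kcnj13, 49.1% overlap Gigyf2 on the opposite strand, which lay at 121 and 136 CPM, and whether the counting used strand is not given in the sources used here. Kcnj2 (Kir2.1), at 0.803 and 0.382 CPM, missed the threshold (adjusted p 0.0915) and Kcnj14 also did not pass. Kcnj8 and Kcnj11, the pores of ATP-sensitive channels, had at most 2 counts in a sample.

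The 2-pore-domain genes encode leak channels that stay open at rest. Of 14 genes 5 were tested, and 2 fell, beside 19.6% of all genes tested. Among the 2 was the member with the highest level per length in WT podocytes. Kcnk1 (TWIK1) had 95.2, 81.3 and 79.0 CPM in WT and 9.48, 8.60 and 11.8 CPM in AS podocytes. The 6 samples formed groups far apart, the WT mean of 85.2 ± 8.78 CPM being 8.54 times the AS mean of 9.97 ± 1.67 CPM (SD, n = 3). Its log2 fold change was -3.09 (SE 0.12), with the smallest adjusted p of the genes tested in the set, 1.68e-07. Kcnk5 (TASK2), a channel sensitive to pH and known from proximal tubule, had 18.0, 10.5 and 8.24 CPM in WT and 2.11, 1.26 and 1.74 CPM in AS podocytes. Again the lines did not overlap and WT replicate 1 was the highest sample (-2.85, SE 0.31, adjusted p 9.35e-05). Kcnk10 (TREK2) did not pass, with 3.31 ± 0.339 CPM in WT samples and 4.52 ± 0.771 CPM in AS podocytes (SD, n = 3; 0.44, SE 0.17, adjusted p 0.0683), although its adjusted p was 0.0483 without AS replicate 3 (0.56). With any other sample left out its adjusted p ran from 0.0656 to 0.246. Kcnk12 lay at 2.69 and 3.16 CPM (adjusted p 0.377), and Kcnk2 (TREK1) had at most 18 counts in a sample.

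**Figure D4:**
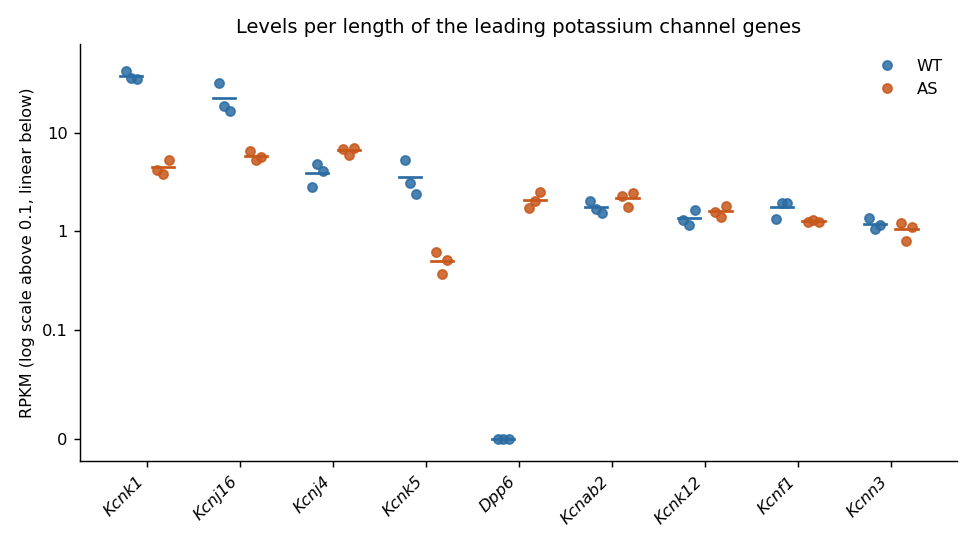
RPKM (CPM per kilobase of exon) of the leading members in each sample, on an axis that is logarithmic above 0.1 RPKM and linear below; points are the 3 WT and the 3 AS samples and short lines their means. Kcnk1 and Kcnj16 lead in WT podocytes, with means of 38.1 and 22.5 RPKM, and Kcnj4 and Kcnj16 lead in AS podocytes, with means of 6.65 and 5.87 RPKM.

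Per length, few genes carried most of the potassium channel RNA. Summed over all members, it was 99.0, 79.0 and 75.2 RPKM in WT and 34.3, 31.1 and 36.6 RPKM in AS podocytes, and 31.9 ± 2.62 RPKM (SD, n = 3) in AS without Dpp6. The lines did not overlap, the WT mean of 84.4 ± 12.8 RPKM standing above the AS mean of 34.0 ± 2.79 RPKM (SD, n = 3). In each line 9 members reached 1 RPKM. Of the summed RPKM of pore-forming genes, Kcnk1 held 49.1% ± 3.03 in WT and 17.6% ± 1.75 in AS podocytes, Kcnj16 28.2% ± 5.32 and 23.3% ± 2.08, and Kcnj4 5.24% ± 1.97 and 26.4% ± 0.312 (SD, n = 3). Kcnj4 thus had rank 3 in WT and rank 1 in AS podocytes, while Kcnk1 had rank 1 and rank 3. In AS podocytes the means of Kcnj4 (6.65 ± 0.584 RPKM), Kcnj16 (5.87 ± 0.649 RPKM) and Kcnk1 (4.46 ± 0.747 RPKM) lay close: the samples of Kcnj4 and Kcnj16 overlapped, and the highest Kcnk1 sample (5.29 RPKM) almost reached the lowest of Kcnj16 (5.32 RPKM).

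By role, the 2-pore-domain genes summed to 43.6 ± 5.34 RPKM in WT and 7.22 ± 0.988 RPKM in AS podocytes, and the inward rectifiers to 27.3 ± 7.31 and 13.2 ± 1.15 RPKM (SD, n = 3). Voltage-gated pores summed to 5.06 ± 0.317 and 2.73 ± 0.410 RPKM. The ion-activated pores kept a like sum, 2.24 ± 0.389 RPKM in WT and 2.07 ± 0.102 RPKM in AS podocytes, although Kcnma1 and Kcnn1 within it moved in opposite directions. Auxiliary subunits summed to 3.62 ± 0.123 and 7.31 ± 0.774 RPKM, a sum in AS that includes the 2.09 RPKM of Dpp6 which prompted the choice of genes. As a share of the whole set, again with Dpp6 included, auxiliary subunits held 4.33% ± 0.483 in WT and 21.5% ± 1.27 in AS podocytes, and 2-pore-domain genes 51.7% ± 1.45 and 21.2% ± 1.22 (SD, n = 3). The whole set behind these shares was itself lower in AS, with means of 84.4 RPKM in WT and 34.0 RPKM in AS podocytes. These sums are descriptions without a test.

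**Figure D5:**
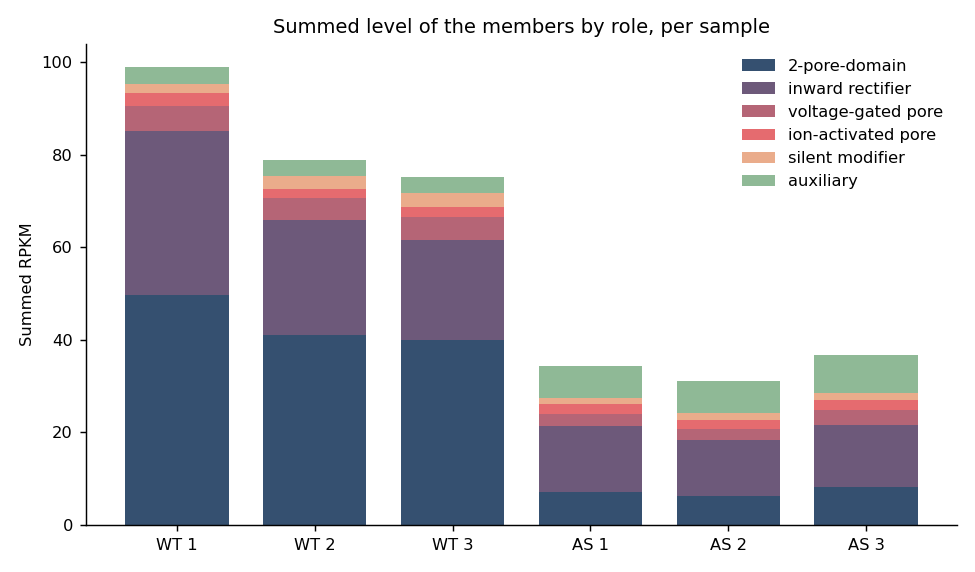
Summed RPKM by role (2-pore-domain, inward rectifier, voltage-gated, silent, ion-activated and auxiliary) in each of the 3 WT and 3 AS samples, stacked from 0. The stacks reach 75.2 to 99.0 RPKM in WT and 31.1 to 36.6 RPKM in AS, and the 2-pore-domain part shrinks from a mean of 43.6 to 7.22 RPKM.

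Genes that work with these channels or move potassium by other means were taken from 8 lists. Of their 43 genes 27 were tested, of which 10 were lower (19.6% of all genes tested were), 7 were higher (20.4% of all genes) and 10 did not pass, with a median log2 fold change of -0.15. The 10 include Abcc9 and Fxyd1, which were detected in WT only. The sulfonylurea receptor Abcc9, which joins the ATP-sensitive pores named above, had 0.769, 0.983 and 1.34 CPM in WT and 0.0444, 0.156 and 0.164 CPM in AS podocytes, without overlap; it passed the filter through WT alone, so no test is given, while Abcc8 had few counts. HCN channels, related cation channels opened by hyperpolarization, rose: Hcn3 from 0.659 to 1.98 CPM (1.59, adjusted p 0.000895) and Hcn2 from 9.14 to 11.4 CPM (0.32, adjusted p 0.0479). The Hcn2 call was lost when any sample other than WT replicate 1 was left out, with values from 0.25 to 0.35 and adjusted p from 0.0703 to 0.148, and relative to the median of its chromosome 10 the value was 0.0095. Of the relatives of Dpp6 that keep their peptidase activity, Dpp4 rose from 0.486 to 1.09 CPM (1.15, adjusted p 0.0155) and Dpp9 from 52.3 to 60.7 CPM (0.22, adjusted p 0.0172). Dpp8 lay at 135.98 ± 4.23 CPM in WT samples and 135.91 ± 3.11 CPM in AS podocytes (SD, n = 3; adjusted p 0.993). The call of Dpp4 was lost without WT replicate 3 (1.07) or AS replicate 1 (0.92), and that of Dpp9 without WT replicate 2 (0.20), AS replicate 1 (0.21) or AS replicate 3 (0.19).

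The sodium-potassium ATPase imports the potassium that channels let out, and of its 7 tested genes 4 were called lower and none higher, beside 19.6% of all genes lower. Among the 4, Fxyd1 (0.338 and 0.121 CPM) passed the filter through WT alone, and its call was lost in 8 alternatives. Atp1b3, a beta subunit, fell from 388, 345 and 310 CPM to 221, 211 and 195 CPM without overlap (log2 fold change -0.74, SE 0.09, adjusted p 0.000169). The regulator Fxyd5 fell from 8.89 to 3.53 CPM (-1.33, adjusted p 0.000477). Of the 5 tested potassium-chloride cotransporters Slc12a4 rose from 294 to 391 CPM (0.41, adjusted p 0.000833; 0.11 relative to the median of its chromosome 8), Slc12a7 from 83.7 to 104 CPM (0.31, adjusted p 0.00978), and Slc12a5 fell from 1.99 to 0.854 CPM (-1.22, adjusted p 0.0120). Of the WNK and SPAK kinases that control them, Wnk1 fell from 845 to 686 CPM (-0.30, adjusted p 0.00950; -0.10 relative to the median of chromosome 6), Stk39 fell from 70.2 to 55.3 CPM (-0.34, adjusted p 0.0106) and Wnk4 rose from 11.4 to 16.2 CPM (0.51, adjusted p 0.0172). Tmem38b, one of 3 intracellular potassium channel genes, fell from 11.9 to 9.02 CPM (-0.40, adjusted p 0.0165; -0.23 relative to the median of chromosome 4), and the other 2 did not pass. The Tmem38b call was lost without WT replicate 2 (-0.37), WT replicate 3 (-0.37) or AS replicate 3 (-0.35), and that of Wnk4 without WT replicate 2 or 3 or AS replicate 1 or 3 (0.43 to 0.46).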

How the data were processed

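Libraries from 3 WT and 3 AS podocyte samples were prepared from mRNA with 15 cycles of PCR. The authors deposited raw read counts per gene, without normalization. FastQC, Trim Galore, STAR, edgeR and build mm39 are named in the submitters' processing notes, while versions, counting tool, annotation release and strand setting were not given in the sources used here. Identifiers were matched without version to GENCODE M21 (GRCm38; 51880 of 57132), which gave symbols, gene type and exon length. Genes passing filterByExpr (minimum count 10, minimum total 15) were scaled by TMM and tested with edgeR 4.0.16 in R 4.3.3, quasi-likelihood, two-sided, Benjamini-Hochberg adjusted. The SE is the log2 fold change over the square root of F, an approximation. A fold against a line at 0 uses 3 counts over the group, and limits cover counting error only, since reads are not independent molecules. With 3 samples per line, no exact permutation p can be smaller than 0.10. The fits were tested on simulated data.

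The genes and lists were chosen with earlier results of these data known. Named were Dpp6, Dpp10, the Kcnd and Kcnip genes, the 10 largest increases and decreases among called members, the 5 highest by RPKM per line, at most 3 called genes per other list, the 5 neighbours on each side of Dpp6, and Col4a3. Further members were named after their values were seen: Kcnh2, Kcnab1, Kcnab3, Kcna4, Kcnj2, Kcnn3, Kcnk10, Kcnk12 and genes with few counts. Alternatives were RLE scaling, library size only, DESeq2 1.42.0, limma-voom 3.58.1, other filters, a replicate block and each sample left out. A few genes of the set and of the lists are counted but not reported here by name.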

Additional observations from a re-analysis of the deposited data

How the results depend on the processing

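Of 563 values of 44 named genes under alternatives, 500 kept direction and side of the threshold, 49 lost a call, 12 gained one and 2 reversed, both of Kcnip3, which ran from -0.28 to 0.062 with a sample left out (0.041 without WT replicate 3 and 0.062 without AS replicate 2). The called members ran from 4 to 7 higher and 10 to 13 lower with a sample left out, and from 6 to 7 and 11 to 15 under the other alternatives. The called genes of the other potassium lists ran from 12 to 16 with a sample left out. Detected members ran from 33 to 34 in WT and 30 to 34 in AS podocytes with a sample left out. A mean CPM of at least 1 gave 22 in AS, since it asks for more counts. Dpp6 in AS podocytes ran from 23.2 to 28.1 CPM.

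The samples of the lines share the numbers 1 to 3. Same-numbered samples correlated by 0.147, 0.0939 and 0.0527 in their deviations, and differently numbered ones by -0.130 to 0.0571. These values do not settle whether the numbers pair the samples, and the main fit did not pair them. With a replicate block 6 members were higher and 14 lower, with Kcnd1 the addition (adjusted p 0.00954). Removing chromosome medians turned no sign among 44 genes but moved 11 by over 1 SE, most in proportion Hcn2 (to 0.0095), Slc12a4 (to 0.11) and Wnk1 (to -0.10). Kcnf1 also lost its call with library size only (adjusted p 0.0609) and limma-voom (0.0622), and Kcnd1 gained one with RLE scaling, DESeq2 and no filter. Counts under 20 per sample limit the 59 untested members.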

Other observations

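Kcnq1ot1, a non-coding RNA read antisense to Kcnq1 and known from genomic imprinting, was left out of the set because it encodes no protein. Its mean was 3.28 CPM in the WT and 6.37 CPM in the AS line (n = 3; log2 fold change 0.96, SE 0.17, adjusted p 0.00180 in edgeR's quasi-likelihood test), while Kcnq1 itself had at most 4 counts in a sample.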
